A study of Rattus norvegicus with 16 samples.

Results

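Synovial RNA of knees injected with monoiodoacetate (MIA) was compared with that of knees injected with saline in rats given vehicle. The comparison used the 4 libraries titled MIA vehicle and the 4 titled contralateral vehicle, 8 of the 16 libraries of the series, chosen by those titles. Every rat received 2 mg of MIA in 50 µl of saline in 1 knee and 50 µl of saline in the contralateral knee, and synovial tissue was taken after 4 weeks. The other 8 libraries came from rats labelled inhibitor, again 4 from MIA and 4 from contralateral knees, and fatty acid binding protein 5 is the inhibited protein in the title of the series. All 16 knees were therefore injected, and the saline knee belonged to a rat whose other knee held MIA, so no knee of an untouched rat stands beside them. The sources used here give no strain, sex or age of the rats and do not say what the vehicle was. Nothing in them says that a group's 4 libraries were from different rats, so p-values measure the spread between libraries, which may be technical.

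MIA blocks a glycolytic enzyme, kills chondrocytes and is injected into rodent joints to produce cartilage loss, synovial inflammation and pain that resemble osteoarthritis. The synovium lines the joint with fibroblast-like cells and macrophages over a layer of vessels, nerve endings and fat, and it secretes the lubricant of the joint as well as cytokines, chemokines and matrix proteases when inflamed. It lies next to fat pad, tendon and muscle, so a dissected piece can hold several tissues. In bulk tissue, fewer cells of a type and less RNA per cell cannot be told apart.

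The unit measured was the transcript. Each library listed 46726 Ensembl rat transcripts, of which 26956 had enough counts to be tested. The remaining 19770 did not pass the filter, and 8648 of these had no count in any library. The files give identifiers without gene names, and no table used here pairs them, so synovial, fat and muscle markers, cytokine genes and the gene of the inhibited protein are not analysed here. Transcripts are described below by level, length, share of the library and direction, and 4 are given by identifier. A level is written in CPM, counts per 1000000 of the library after TMM scaling (trimmed mean of M-values, which assumes that most transcripts do not change), and a transcript is written as called where edgeR's Benjamini-Hochberg adjusted p was under 0.05.

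Before any transcript was tested, 3 measures of library makeup did not overlap between the knees, although none passed adjustment over the measures compared. The 100 most abundant transcripts of a library held 41.5%, 51.1%, 45.4% and 53.1% of the counts in contralateral vehicle replicates 1 to 4. They held 34.1%, 29.9%, 30.4% and 31.5% in MIA vehicle replicates 1 to 4, so the groups did not overlap. Long transcripts had the larger share in MIA libraries, where those over 4000 bases held 33.4%, 38.6%, 37.4% and 39.6% of the counts, against 24.2%, 29.2%, 29.0% and 23.0% in the contralateral knees. Short transcripts had the smaller share there, and those under 1000 bases held 7.11% ± 1.26 of the counts in MIA and 10.9% ± 1.76 in contralateral knees (SD, n = 4 each). Each of these 3 shares separated all MIA from all contralateral libraries (exact two-sided permutation test, p = 0.0286, the smallest that 4 against 4 libraries allow, and 0.0571 adjusted over the 6 library measures compared). The mean fragment length implied by the effective lengths, which also move with any bias correction in Salmon, was 256 ± 38.3 bases in MIA and 332 ± 76.7 bases in contralateral knees (SD, n = 4 each), and the groups overlapped (exact permutation p = 0.171, adjusted 0.20). Library totals were 27641038 to 31142101 counts in contralateral and 29416041 to 37063328 in MIA knees (exact permutation p = 0.20, adjusted 0.20). A count was found for 24875 to 28145 transcripts in contralateral and 27254 to 29851 in MIA knees (exact permutation p = 0.0857, adjusted 0.129). In inhibitor rats the knees overlapped in all 3 shares. The 100 most abundant transcripts held 26.1% to 32.8% of the counts in their contralateral and 25.7% to 33.8% in their MIA knees. The contralateral vehicle libraries thus stood above the other 12 in this share. The share over 4000 bases did not set them apart in this way. It was 25.9% to 33.9% in inhibitor libraries, and both vehicle groups overlapped that range. MIA vehicle replicates 2 to 4 lay above that range, and contralateral vehicle replicates 1 and 4 below it. In the share under 1000 bases both vehicle groups overlapped the inhibitor libraries as well. The part of these differences in the results that follow was not tested.

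**Figure D1:**
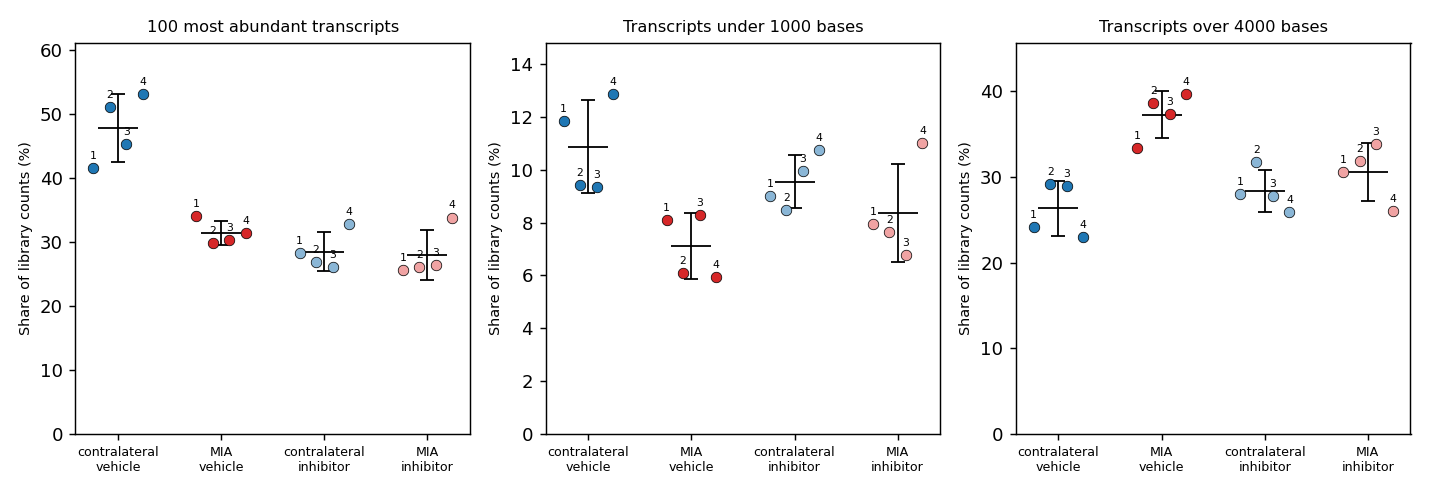
Share of library counts (%) in 3 classes of transcript for each library, numbered by replicate, with the mean and SD (bars) of each group of 4. In vehicle rats the 100 most abundant transcripts held 41.5% or more in contralateral knees and 34.1% or less in MIA knees, and transcripts over 4000 bases were the other way round.

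TMM scaling answered this difference in makeup with factors of 0.803, 0.670, 0.813 and 0.585 for contralateral vehicle replicates 1 to 4 and of 0.964, 1.17, 1.17 and 1.12 for the MIA vehicle replicates. Over all tested transcripts the median log2 change came to 0.26 under TMM and to 0.10 under DESeq2 size factors, so a small change in CPM depends on the scaling. Among the 8 vehicle libraries alone, the first principal component of log2(CPM + 1) held 61.8% of the variance and placed all contralateral libraries between -150.7 and -45.6 and all MIA libraries between 42.7 and 133.1. The second held 16.8% and set replicate 1 of each group, at 101 and 89.0, apart from the other 6, at -40.3 to -14.5. Replicate 1 was also the library of its group nearest to the other group on the first component, at -45.6 in contralateral and 42.7 in MIA knees.

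In vehicle rats 7860 transcripts were called, 29.2% of the 26956 tested. Of these, 4289 (15.9% of those tested) were higher and 3571 (13.2%) lower in MIA knees. The changes were mostly moderate. Among the higher transcripts, 264 had an estimated change of less than 1.5-fold, 1036 of 1.5- to 2-fold, 1807 of 2- to 4-fold, 856 of 4- to 16-fold and 326 of more. Among the lower ones these numbers were 186, 765, 1328, 862 and 430. The median log2 change was 1.32 for the higher and -1.57 for the lower transcripts, with median SEs of 0.32 and 0.31. Of the higher transcripts, 160 had no count in any contralateral vehicle library, and of the lower ones 61 had none in any MIA vehicle library. With these set to the bound that a floor of 3 counts per library allows, the medians were 1.32 and -1.56. The levels of the 4 MIA libraries did not overlap those of the 4 contralateral libraries for 81.3% of the rises and 87.7% of the falls, which these same libraries chose, and for 32.1% of all tested transcripts (17.2% with MIA higher and 14.9% with MIA lower).

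**Figure D2:**
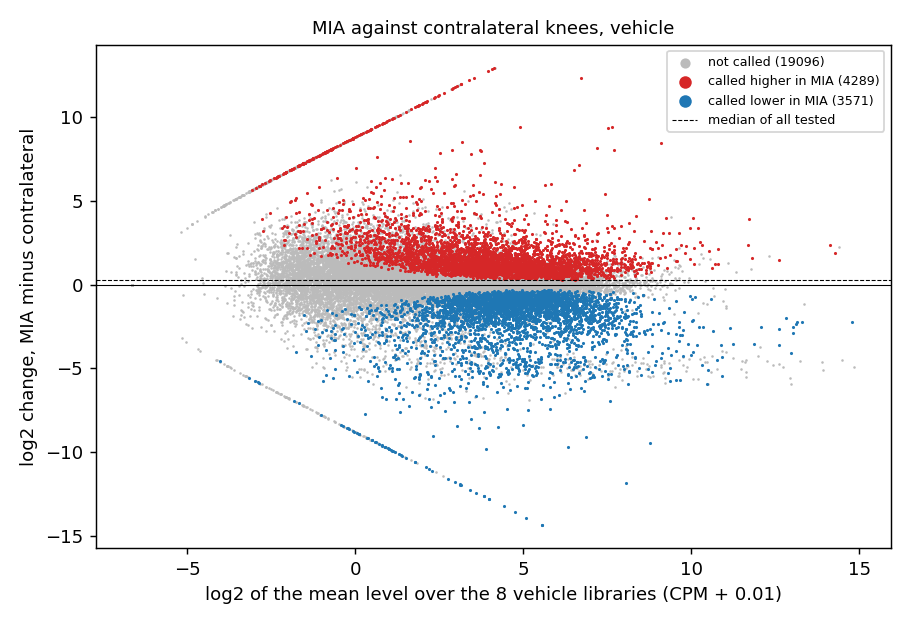
Each point is 1 of the 26956 tested transcripts, placed by the log2 of its mean level over the 8 vehicle libraries (CPM + 0.01) and by its log2 change, MIA minus contralateral. Called transcripts are red (4289 higher) or blue (3571 lower), the dashed line is the median of 0.26, and the straight diagonal edges are transcripts with no count in 1 of the groups, whose plotted change is not a measured size.

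A stricter question is which transcripts changed by more than 2-fold, tested with edgeR's glmTreat and not read from the estimate. It called 1975 transcripts, 7.33% of those tested, of which 807 (2.99%) were higher and 1168 (4.33%) lower in MIA knees. The count rested on single libraries. Leaving out contralateral vehicle replicate 1 gave 3401, with 1769 higher and 1632 lower. Leaving out replicate 4 of that group gave 1157, with 341 higher and 816 lower. It was 1185, 1168 and 1285 without MIA vehicle replicate 2, 3 or 4.

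The direction held by most calls was not fixed either. Of the 7860 calls 54.6% were higher in MIA knees. In the same fit scaled by DESeq2 size factors the split was 3520 higher to 4214 lower, a share of 45.5%. The share was 42.5% without contralateral vehicle replicate 2, 43.2% without contralateral vehicle replicate 4 and 43.2% without MIA vehicle replicate 1. Another fit used log2(TPM + 1), where counts are divided by effective length and scaled to a fixed total. It applied neither TMM nor size factors, so the difference in makeup between the groups was not adjusted for. There limma-trend called 12425 higher and 1891 lower (86.8% higher), and 103 of the 7860 transcripts were called in the opposite direction.

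A narrower set held in all fits on counts. Of the 7860 transcripts, 4525 (57.6%) were called in the same direction in each of 15 other fits, which changed the scaling, the filter, the test, the block or the libraries. These were 1986 higher transcripts, 46.3% of the higher calls, and 2539 lower ones, 71.1% of the lower calls. Their median log2 change was 1.55 (quartiles 1.14 and 2.22) for the higher and -1.66 (quartiles -2.47 and -1.13) for the lower transcripts. Leaving out each of the 8 vehicle libraries in turn left 4848 called in all 8 fits, 2183 higher and 2665 lower. Since the fits share libraries, these counts describe how calls depend on the fit and are no independent evidence for them. With limma-trend on log2(TPM + 1) added, 3249 were called throughout, 1969 higher and 1280 lower.

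**Figure D3:**
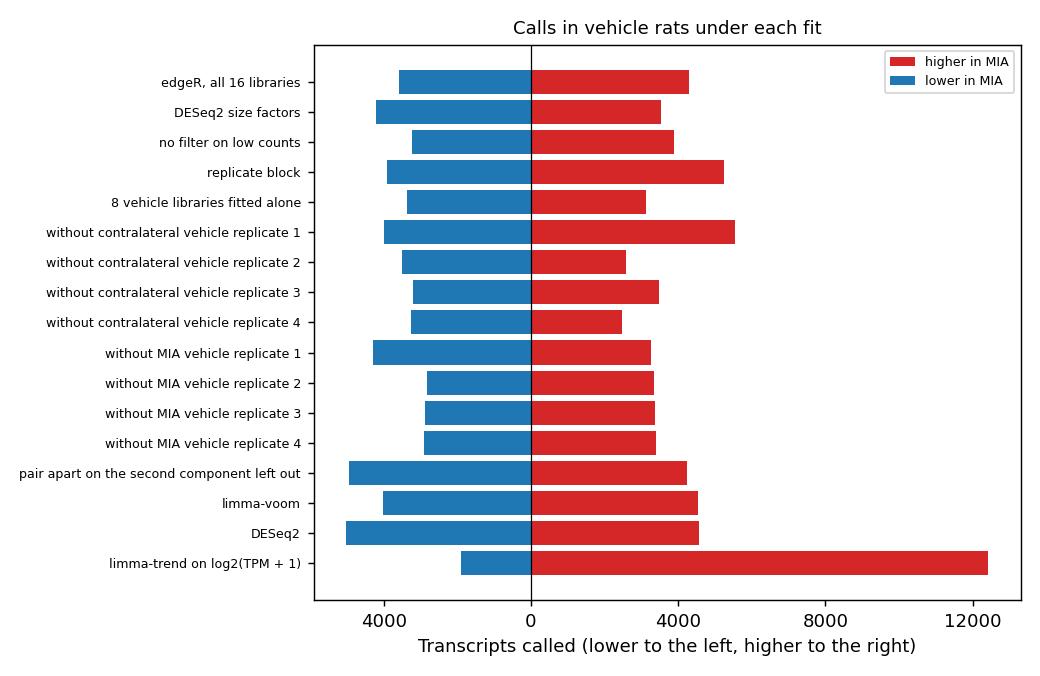
Number of transcripts called higher (red, to the right) and lower (blue, to the left) in MIA knees of vehicle rats under each of 17 fits. On counts the numbers lay between 5717 and 9606 in all, and the fit on log2(TPM + 1) at 14316 with most calls higher.

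Called transcripts held different shares of the counts in MIA and contralateral knees. Together the 4289 higher transcripts held 37.0% ± 3.64 of the counts in MIA and 8.54% ± 4.15 in contralateral knees, and the 3571 lower ones 13.2% ± 1.81 and 36.4% ± 8.19 (SD, n = 4 each), a description of transcripts chosen by this test. Of the 100 transcripts with the highest mean level over the 8 libraries, 17 were called higher, with a median length of 4222 bases, and 31 lower, with a median length of 1545 bases. The remaining 52 were not called, although 42 of them had a negative log2 change and 35 lay lower in all MIA than in all contralateral libraries, as did 14.9% of all tested transcripts. These 52 held 24.6% to 31.6% of the counts in contralateral libraries and 7.37% to 14.0% in MIA libraries. Their median log2 change was -4.34 with a median SE of 1.95. The spread lay in the MIA knees, where the median SD of log2(CPM + 1) over the 4 libraries was 3.49 for these transcripts, against 0.67 in the contralateral knees.

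The transcripts given by identifier are the 2 rises and 2 falls with the highest mean level among those called with a change of at least 2-fold, at least 10 counts in each of the 8 vehicle libraries and no overlap between the groups, which 1895 rises and 2042 falls met. All had counts in every library, so their changes are measured sizes and not bounds. ENSRNOT00000004956.5 (4787 bases) had levels of 40945, 30320, 21109 and 33897 CPM in MIA vehicle replicates 1 to 4. Its levels in contralateral vehicle replicates 1 to 4 were 15485, 6815, 8257 and 2929 CPM. All MIA libraries lay above all contralateral ones, and contralateral replicate 4 was the lowest. The transcript rose 3.77-fold, a log2 change of 1.91 ± 0.46 (SE, edgeR adjusted p = 0.00663, n = 4 against 4). A change of more than 2-fold was not called for it (glmTreat adjusted p = 0.0894). With the 8 vehicle libraries fitted alone its log2 change was 1.92 and its edgeR adjusted p 0.0613. It alone held 2.47% to 3.95% of the unscaled counts of the MIA libraries and 0.171% to 1.24% of those of the contralateral libraries.

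ENSRNOT00000016423.7 (4687 bases) had levels of 24715, 26778, 33946 and 34822 CPM in MIA vehicle replicates 1 to 4. In contralateral vehicle replicates 1 to 4 it had 10016, 6133, 4853 and 2663 CPM. Its groups were further apart than those of the first rise, with the lowest MIA library above the highest contralateral one by a wide margin. It rose 5.08-fold (log2 change 2.35 ± 0.50, SE, edgeR adjusted p = 0.00333, n = 4 against 4), and a change of more than 2-fold was called (glmTreat adjusted p = 0.0351).

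ENSRNOT00000050156.3 (1545 bases) had levels of 24393, 46203, 31554 and 84725 CPM in contralateral vehicle replicates 1 to 4. In MIA vehicle replicates 1 to 4 it had 13779, 7899, 9686 and 8006 CPM. Contralateral replicate 4 stood far above the others. The transcript fell 4.75-fold (log2 change -2.25 ± 0.43, SE, edgeR adjusted p = 0.00158, n = 4 against 4). Without contralateral vehicle replicate 4 its log2 change was -1.96 (edgeR adjusted p = 0.00174).

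ENSRNOT00000049683.3 (784 bases) had levels of 12582, 14853, 10139 and 27983 CPM in contralateral vehicle replicates 1 to 4. Its levels in MIA vehicle replicates 1 to 4 were 5718, 2700, 3292 and 2421 CPM. It fell 4.64-fold (log2 change -2.21 ± 0.43, SE, edgeR adjusted p = 0.00182, n = 4 against 4). The library that stood highest was again contralateral replicate 4, and the highest MIA library was again replicate 1. Per length, in the deposited TPM, the shorter fall was at 28181 to 45213 in contralateral and 10974 to 18797 in MIA knees, and ENSRNOT00000050156.3 at 25840 to 60119 and 15008 to 20510, so neither group of either transcript overlapped the other on that scale. A change of more than 2-fold was called for both falls (glmTreat adjusted p = 0.0240 for ENSRNOT00000050156.3 and 0.0271 for ENSRNOT00000049683.3). The estimated counts of these 4 transcripts were not whole in nearly all libraries, so Salmon divided some of their reads with other transcripts.

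**Figure D4:**
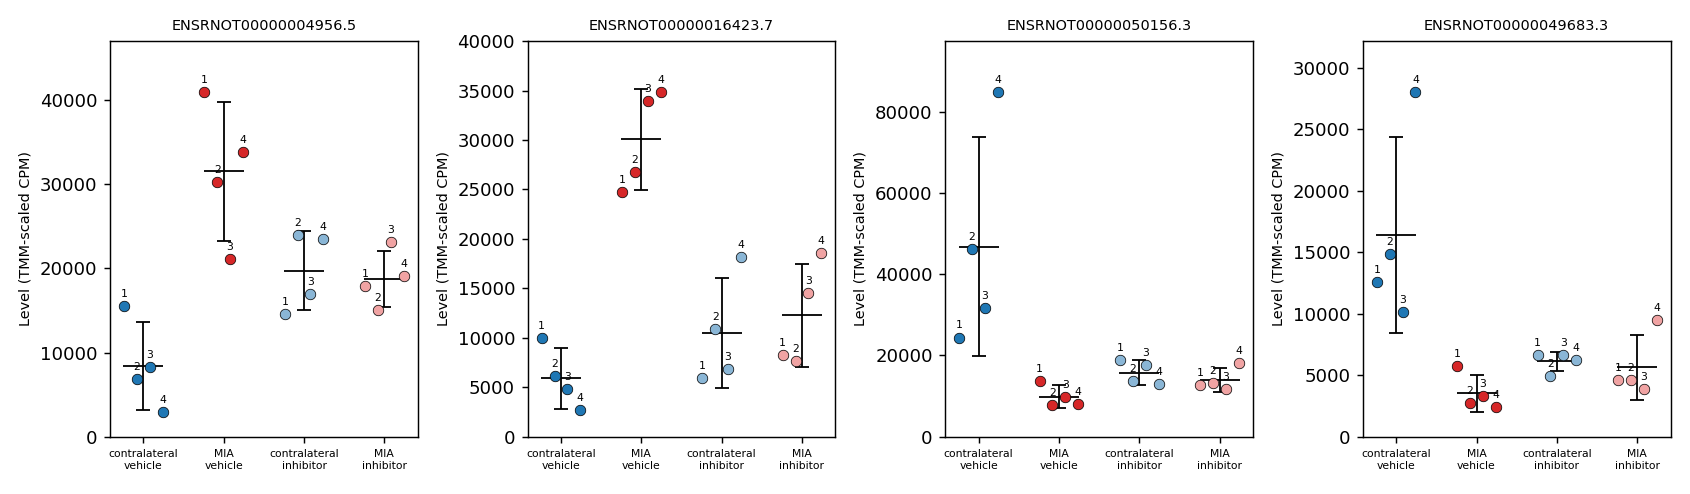
Level (TMM-scaled CPM) of the 4 transcripts in each of the 16 libraries, numbered by replicate, with the mean and SD (bars) of each group of 4. In vehicle rats the groups did not overlap for any of the 4, as their choice required. The means of the inhibitor groups lay between those of the vehicle groups.

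Calls differed with transcript length. Of the 322 tested transcripts under 500 bases, 8.07% were called higher and 18.9% lower in MIA knees, and of the 1527 with 500 to 1000 bases 183 were higher and 261 lower. Among the 11170 with 2000 to 4000 bases 1952 were higher and 1455 lower, and among the 5981 with 4000 to 8000 bases 17.1% were higher and 9.81% lower. Of the 1046 with 8000 bases or more, 9.56% were higher and 7.65% lower. With DESeq2 size factors the order was the other way round in 2 of these bins, with 1585 higher and 1714 lower at 2000 to 4000 bases and 7.07% higher and 8.99% lower at 8000 bases or more. The median log2 change rose from -0.07 under 500 bases to 0.33 between 4000 and 8000 bases. Short transcripts also differ from long ones in level, so the bins were repeated for transcripts with a mean of 10 to 100 CPM. There the share called lower was 38.9% of 72 transcripts under 500 bases, 33.7% of 469 with 500 to 1000 bases, 30.2% of 2374 with 1000 to 2000 bases, 21.9% of 4409 with 2000 to 4000 bases, 14.6% of 2658 with 4000 to 8000 bases and 9.78% of 450 longer ones. The share called higher was 9.72% under 500 bases and 24.3% between 4000 and 8000 bases, and 14.2% above that. With DESeq2 size factors the shares called lower in the same bins ran from 40.3% down to 11.3%. There the share higher exceeded the share lower only between 4000 and 8000 bases (19.7% and 18.3%). Either scaling applies a single factor to all transcripts of a library, so a gradient under both is no independent support. Over all tested transcripts, the median log2 change of those under 1000 bases was 0.30 below that of those over 4000 bases. The difference was -0.30 with both scalings, and it could hardly differ, since a scaling shifts all log2 changes nearly alike. This difference was -0.12 without contralateral vehicle replicate 1 and -0.41 without contralateral vehicle replicate 3. The shares of library counts in short and long transcripts moved the same way between the groups, as given above, and what set them was not tested.

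**Figure D5:**
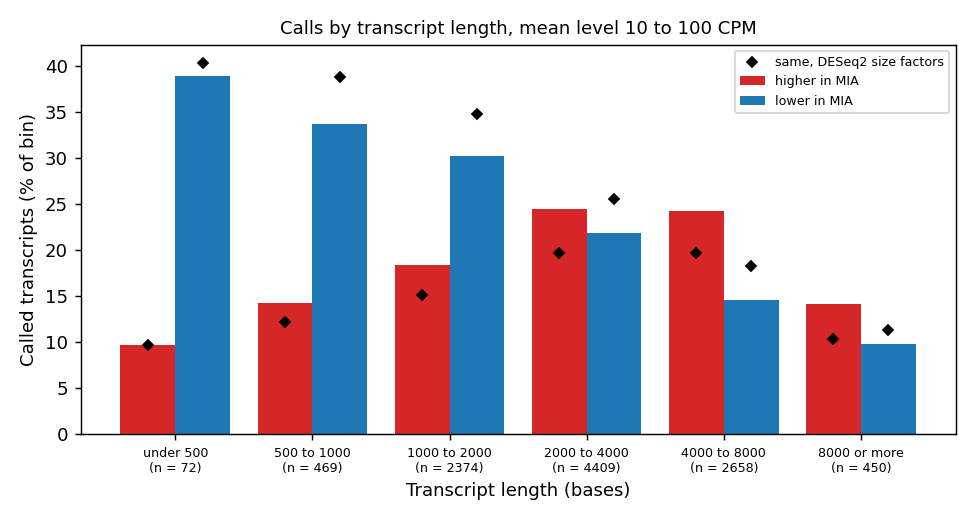
Share of transcripts called higher (red) or lower (blue) in MIA knees of vehicle rats by transcript length in bases, for transcripts with a mean level of 10 to 100 CPM, with the number of transcripts in each bin and diamonds for DESeq2 size factors. The share called lower falls from 38.9% in the shortest to 9.78% in the longest bin.

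Level mattered as well. Of the 103 transcripts with a mean of 1000 CPM or more, 18 were called higher and 33 lower, and of the 1491 between 100 and 1000 CPM 334 were higher and 457 lower. Lower levels went the other way, with 1387 higher and 720 lower among the 9954 transcripts between 1 and 10 CPM. A sign of whether Salmon divided reads was taken from the counts, since a count that it did not divide is whole. A whole count can also arise otherwise, so it does not establish that the reads fit only 1 transcript. Of the 3907 transcripts with whole counts in all 8 vehicle libraries (within 1e-06), 22.7% were called higher and 13.3% lower. Of the 11948 with a whole count in none, 16.5% were higher and 16.8% lower. With DESeq2 size factors 750 and 625 of the former, and 13.2% and 19.8% of the latter, were higher and lower. Where no division was seen, more calls were higher than lower under both scalings. The whole counts belonged to transcripts of lower level, with a median of 6.84 CPM against 13.3 CPM.

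Some transcripts were found in the knees of 1 kind alone. With at least 10 counts in each MIA vehicle library and none in any contralateral vehicle library there were 64, of which 60 were called, with a median level of 2.29 CPM where found. The reverse held for 36, all of them called, with a median of 5.42 CPM where found. Of all tested transcripts 29.2% were called. The same libraries chose these transcripts and gave the calls, so the calls add no support. Counts were divided for nearly all of them, since only 3 of the 64 and none of the 36 had whole counts in all 4 libraries where they were found, so a count of 0 does not establish absence. In the inhibitor rats, 55 of the 64 had a count in at least 1 contralateral library and 8 had at least 10 counts in all 8 libraries. Of the 36, 13 had no count in any of the 8 inhibitor libraries and none had at least 10 counts in all of them.

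Libraries of a group did not contribute alike. Contralateral replicate 1 was the contralateral library nearest to the MIA libraries for 67.6% of the rises and 76.2% of the falls, and contralateral replicate 4 the farthest for 59.2% and 80.7%. Measured against the MIA mean as log2(CPM + 1), the median difference of the lower calls was 0.87, 1.51, 1.23 and 1.81 in contralateral replicates 1 to 4. For the higher calls it was -0.73, -1.23, -1.08 and -1.49. Median differences of the MIA libraries from the contralateral mean lay closer together, at 1.01, 1.17, 1.16 and 1.14 for the higher calls. For the lower calls they were -1.17, -1.44, -1.42 and -1.37. Over all tested transcripts, correlations of log2(CPM + 1) between libraries were much the same within both groups. They were 0.870 to 0.959 in MIA and 0.867 to 0.961 in contralateral knees. MIA replicate 1 was the MIA library nearest to the contralateral ones for 44.9% of the rises and 65.4% of the falls. Among the 12026 transcripts whose mean was 10 CPM or more, the SD of log2(CPM + 1) was larger in contralateral than in MIA knees for 70.6%, with medians of 0.42 and 0.26. The values for the calls describe transcripts that the same libraries chose, while the 12026 were chosen by level alone. Without replicate 1 of both groups, a fit added after seeing the data, 9199 were called, 4252 higher and 4947 lower, and 3456 changed by more than 2-fold.

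The libraries of inhibitor rats were not part of the contrast that chose these transcripts, though they entered the filter and the shared fit. Each transcript's mean log2(CPM + 1) was set on a line from the contralateral vehicle mean at 0 to the MIA vehicle mean at 1. The difference between these means chose the transcripts, so the positions of other groups depend on that choice. No position over all tested transcripts is given beside them. The contralateral inhibitor knees, which received saline, had a median position of 0.68 (quartiles 0.40 and 0.91) for the higher calls and 0.88 (quartiles 0.70 and 1.03) for the lower calls. They lay nearer to the MIA vehicle than to the contralateral vehicle mean for 67.4% of the rises and 87.0% of the falls. The MIA inhibitor knees had medians of 0.82 and 0.94. Saline knees of inhibitor rats thus lay nearer to the MIA vehicle knees than to the saline knees of vehicle rats for most called transcripts. All these positions are read against the same 4 contralateral vehicle libraries, and a difference of treatment and a property of those 4 libraries cannot be told apart in this design. The implied mean fragment length was 119 to 238 bases in the inhibitor libraries and 212 to 399 bases in the vehicle libraries, and its part in these positions was not tested.

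The 4 transcripts given by identifier did not all lie nearer to the MIA vehicle mean. ENSRNOT00000016423.7 had positions of 0.34 in contralateral and 0.44 in MIA knees of inhibitor rats, nearer to the contralateral vehicle mean in both. ENSRNOT00000004956.5 had 19749 ± 4720 CPM in the contralateral knees of inhibitor rats and 18786 ± 3347 CPM in their MIA knees, and ENSRNOT00000016423.7 had 10461 ± 5554 and 12256 ± 5247 CPM (SD, n = 4 each). ENSRNOT00000050156.3 had 15778 ± 2972 and 13919 ± 2935 CPM, and ENSRNOT00000049683.3 had 6113 ± 801 and 5632 ± 2613 CPM (SD, n = 4 each). The MIA and contralateral libraries of inhibitor rats overlapped for each of the 4. The change in vehicle rats minus that in inhibitor rats was -2.07 ± 0.59 (SE) on the log2 scale for ENSRNOT00000050156.3 and -2.10 ± 0.59 for ENSRNOT00000049683.3 (edgeR adjusted p = 0.0399 and 0.0391). It was 1.99 ± 0.64 for ENSRNOT00000004956.5 and 2.12 ± 0.68 for ENSRNOT00000016423.7, where the test did not pass (edgeR adjusted p = 0.0633 and 0.0652). The vehicle change chose these 4 and is part of this difference. Its sizes and p-values for the 4 therefore depend on that choice and add no independent support. The MIA change differed between the treatments for 2668 transcripts, 9.90% of those tested. That number was 5484 without contralateral vehicle replicate 1, 1647 and 1735 without contralateral vehicle replicate 2 or 4, 1461, 1480 and 1520 without MIA vehicle replicate 2, 3 or 4, and 4933 with DESeq2. Of the 2668, 2603 (97.6%) were also among the vehicle calls, and 2593 of these changed more in size in vehicle rats. Both tests use the same vehicle change, so this overlap is no separate result.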

How the data were processed

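Each library has 1 deposited file in Salmon's format, per the file headers. The build mRatBN7.2 and the tools Salmon (1.4.0), fastp (0.20.1) and DESeq2 (1.30.0) stand in the submitters' processing notes, without their roles. The transcript release and Salmon's settings are not stated there. The deposited estimated counts are the authors' expected counts per transcript, not scaled. The deposited TPM values are divided by effective length and scaled to a fixed total by the authors.

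Counts were rounded, filtered by filterByExpr with the 4 groups (99.7% to 99.9% of counts kept) and scaled by TMM. All 16 libraries entered 1 quasi-likelihood fit in edgeR (version 4.0.16, with limma 3.58.1 and R 4.3.3) with a mean for each group and no covariate, and contrasts were tested two-sided by F with Benjamini-Hochberg adjustment over all transcripts. Standard errors are the absolute log2 change over the root of F. Alternatives used DESeq2 1.42.0, limma-voom, limma-trend on log2(TPM + 1) at a mean of at least 0.5 TPM, and fits with libraries left out. The scripts were tested on simulated data in which 200 of 26956 transcripts changed. Of 100 changed 4-fold 40 were called, and of 100 changed 2-fold 3 were called, with 0 false calls. Simulated counts were drawn independently, with no change in other transcripts and no further difference in makeup between groups. These rates therefore need not hold for the libraries studied here. Library measures were compared by exact permutation tests.

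The 4 identifiers are the rises and falls of highest mean level under the criteria given with them. The comparison, this rule and the bins were chosen with earlier results of these data known. Planned gene lists could not be joined to the identifiers, since 0 entries of the rat gene table hold an Ensembl identifier. No pair of libraries had identical counts (0 pairs).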

Additional observations from a re-analysis of the deposited data

Results flagged for a closer look

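MIA vehicle replicate 1 had a count for 27254 transcripts, far from the 29506 to 29851 of the other 3 libraries of its group. This was the only value set apart among 20 groups of 4 values examined (6 library measures and 4 transcripts in each vehicle group), and chance sets about 1 in 20 apart. The MIA change differed between vehicle and inhibitor rats, by the interaction test, for 2668 transcripts. Among the 4 transcripts given by identifier it differed for ENSRNOT00000050156.3 (-2.07 on the log2 scale, vehicle minus inhibitor, edgeR adjusted p = 0.0399) and ENSRNOT00000049683.3 (-2.10, edgeR adjusted p = 0.0391). The 4 were chosen by their vehicle change, which is part of this difference, so these tests depend on that choice.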

How the results depend on the processing

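The number called in vehicle rats stayed within 1.5 times 7860 in every fit on counts (5717 to 9606; 5717 to 9535 with 1 vehicle library left out) and was 14316 with limma-trend on log2(TPM + 1). Several choices change together in that fit, and the cause was not tested. The number changed by more than 2-fold ranged from 1157 to 3401 with 1 library left out, and the number whose MIA change differed between treatments from 1461 to 5484. Without replicate 1 of both vehicle groups, added after seeing the data, these were 3456 and 5328, and the latter was 4933 with DESeq2. The cause was not tested. Sample numbers were not taken to pair the vehicle knees: deviations from the group means correlated at 0.01 to 0.22 within a number, over 0.1 in 3 of 4, and 3 of 8 libraries correlated best with their own number. In inhibitor rats, whose libraries share the fit and enter the test between treatments, all 4 were over 0.1 (0.24 to 0.64) and 6 of 8 libraries correlated best with their own number. With the number as a replicate block 9158 transcripts were called, 7176 of them among the 7860, and 2957 differed between treatments. The 4 named transcripts kept direction in all 15 other fits and stayed called, except ENSRNOT00000004956.5 with the 8 vehicle libraries alone (log2 change 1.92, edgeR adjusted p = 0.0613). The library measures and the length difference kept their direction without each library. With 4 libraries per group, a missing call does not show that a transcript did not change.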
